A study of Mus musculus with 20 samples.

Results

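The glutathione transferases described here are 10 mouse genes, namely the alpha class genes *Gsta1*, *Gsta2*, *Gsta3* and *Gsta4*, the pi class gene *Gstp1*, the theta class genes *Gstt1* and *Gstt2*, *Gstk1* (kappa), *Gstz1* (zeta) and the microsomal gene *Mgst1*. Members were found by matching the RefSeq accession that the array gives for each probe to these symbols, and no measured value was used. The array held probes for 9 of the 10 genes among 16535 genes with a symbol, and no probe was matched to *Gstk1*. Of 41174 probes, 12 belonged to the 9 genes, with a pair of probes each for *Gsta3*, *Gstp1* and *Mgst1*. The *Gsta4* probe was printed in 10 spots and the others in 1 spot each, which gave 21 spots in all. All 12 probes were among the 27346 probes judged present, and all 12 were well above background in both dye channels on 20 of 20 arrays.

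The RNA came from the livers of 20 male Muta™Mouse animals aged 25 weeks, of the transgenic strain that the labels call 40.6. These animals carry a bacterial *lacZ* transgene for mutation scoring, and controls and exposed mice shared it. Groups of 5 mice were given olive oil alone (control) or benzo(a)pyrene (BaP) in olive oil at 25, 50 or 75 mg/kg/day by gavage for 28 days and were killed 3 days after the last dose. Each liver was labelled with Cy5 and hybridized once, against Cy3-labelled universal mouse reference RNA from pooled cell lines, and every value below is a log2 ratio of liver over reference unless another quantity is named. The name of each group is followed by its sample number (1 to 20). The labels name lungs in the source field and liver as the tissue. Of the lung list, the surfactant genes *Sftpc* and *Sftpb* were well above background on 0 of 20 arrays, *Ager* on 1 and *Scgb1a1* on 5. Of the *Sftpa1* probes 1 reached 16 and 1 reached 0 arrays, and *Sftpd*, which encodes surfactant protein D, reached 19 at a median liver intensity of 191. *Alb*, which encodes albumin, had a mean ratio of 3.99. The samples are called liver after the tissue label and the hepatocyte genes.

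Glutathione transferases join the tripeptide glutathione to electrophiles. In BaP metabolism their substrates include diol epoxides, which otherwise react with DNA, and pi and alpha class enzymes are known for this conjugation. Soluble transferases work as dimers in the cytosol, the kappa enzyme is mitochondrial, and Mgst1 sits in the membranes of the endoplasmic reticulum and the outer mitochondrial membrane. Several of the genes are known targets of the transcription factor Nrf2, which binds antioxidant response elements, and of the aryl hydrocarbon receptor, which binds xenobiotic response elements. The comparison asks whether 28 days of BaP left the transferase transcripts at another level than olive oil did.

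The promoters of 8 of the 10 genes were available from RefSeq (GRCm38.p6), as windows of 300 bases that run from 250 bases before to 50 bases after the start of transcription, and *Gsta4* and *Gstt2* had no entry. Those of *Gsta1* and *Gsta2* are shown because the levels of the pair moved together from array to array (below), and that of *Gstp1* because it holds the same motif. Each line gives 150 bases before the start and 25 bases from it, 5′ to 3′ on the strand of the gene. Capitals mark the core of the xenobiotic response element, GCGTG, searched on both strands.
Gsta1: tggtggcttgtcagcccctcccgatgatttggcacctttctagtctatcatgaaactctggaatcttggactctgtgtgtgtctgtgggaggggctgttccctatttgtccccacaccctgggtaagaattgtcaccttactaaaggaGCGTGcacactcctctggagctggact
Gsta2: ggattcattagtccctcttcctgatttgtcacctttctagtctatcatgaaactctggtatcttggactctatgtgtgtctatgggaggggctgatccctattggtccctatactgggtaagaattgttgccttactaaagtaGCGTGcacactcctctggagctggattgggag
Gstp1: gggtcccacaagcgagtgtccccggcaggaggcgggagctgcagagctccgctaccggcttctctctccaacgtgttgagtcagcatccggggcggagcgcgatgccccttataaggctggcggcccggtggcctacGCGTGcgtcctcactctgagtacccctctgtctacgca

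The *Gsta1* stretch lies at chr9:78230519-78230693 on the plus strand, that of *Gsta2* at chr9:78347121-78347295 on the minus strand and that of *Gstp1* at chr19:4037888-4038062 on the minus strand. In a global alignment the 175 bases shown of *Gsta1* and *Gsta2* were identical at 148 positions (84.6%), and the element stood at the same aligned place, across the annotated start of *Gsta1* and 7 bases before that of *Gsta2*. The other windows of the members held no GCGTG. These letters are common, with a match in 32.4% of all 32851 promoter windows, so a match is a description and not a binding site.

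The core of the antioxidant response element, TGACNNNGC, was found on either strand in 1 window each of *Gsta3* and *Mgst1*, against 12.4% of all windows, and in no other window of a member. Both stretches are shown because the brighter probes of *Gsta3* and *Mgst1* also moved together across the arrays, with the element in capitals, as its reverse complement where it lies on the minus strand.
Gsta3: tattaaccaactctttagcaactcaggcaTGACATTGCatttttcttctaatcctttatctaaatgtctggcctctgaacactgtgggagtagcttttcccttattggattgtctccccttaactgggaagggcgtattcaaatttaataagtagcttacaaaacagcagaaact
Mgst1: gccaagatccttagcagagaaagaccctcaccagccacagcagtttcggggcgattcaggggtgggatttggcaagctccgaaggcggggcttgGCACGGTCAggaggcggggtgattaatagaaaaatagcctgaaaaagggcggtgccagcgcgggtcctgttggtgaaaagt

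The *Gsta3* stretch lies at chr1:21240435-21240609 and the *Mgst1* stretch at chr6:138140377-138140551, both on the plus strand. The elements did not overlap a GCGTG in any of these windows. Neither search shows whether a factor was bound in these livers.

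The 12 probes lay between the 86.6th (*Gsta4*) and the 99.98th percentile of liver intensity over all probes of the array, present or not. The brightest probe of *Gstp1* had a median liver intensity of 344926, and the brightest probes of *Mgst1* and *Gsta3* had medians of 220235 and 175624. Intensity depends on the probe as well as on the transcript, so these values do not order the genes. The mean ratio over the 20 arrays ran from 0.91 (*Gsta4*, 1.88-fold over the reference) to 7.00 (*Gsta3*, 128-fold), and all 12 probes had more signal in liver than in the reference. Probes of a gene gave different ratios for *Gsta3* (7.00 and 4.18) and *Mgst1* (3.72 and 6.24), with median reference intensities of 1304 and 5167 for *Gsta3* and of 11444 and 1484 for *Mgst1*. The *Gstp1* probes gave 2.68 and 2.76. Each gene is represented below by its present probe of highest mean intensity, and the other probe is given where it differs.

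BaP left the listed transferases without a called change at any dose. A probe was called when its adjusted p was below 0.05 (limma, Benjamini-Hochberg over all present probes) and its fold change was above 1.5, the thresholds of the study's methods. By this rule 0 of 12 probes were called at 25 and at 50 mg/kg/day, where 0% of all present probes were called, and 0 of 12 at 75 mg/kg/day, where 0.135% were called (36 higher and 1 lower). At an unadjusted p below 0.05 the members counted 3, 1 and 4 of 12 probes at the 3 doses. All present probes counted 2135, 1831 and 3065 of 27346. No member's exposed group was clear of the controls at any dose (0 of 12 probes at each), while 1.21%, 0.815% and 1.52% of all present probes were. The lowest adjusted p of a member was 0.636 at 25, 0.715 at 50 and 0.308 at 75 mg/kg/day.

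The small differences lay mostly on 1 side. The log2 fold change was above 0 for 12 of 12 probes at 25, 10 of 12 at 50 and 11 of 12 at 75 mg/kg/day. Over the 9 representing probes the median log2 fold change was 0.26, 0.21 and 0.26, where the median over all present probes was 0.00 at 25, −0.00 at 50 and 0.00 at 75 mg/kg/day. Such a shift was shared by other transcripts of the same kind. Of 1587 present probes whose mean ratio was 2.5 or more, 85.1%, 76.5% and 80.5% lay above 0 at the 3 doses, with medians of 0.21, 0.15 and 0.24, and of the 274 brightest probes of the liver channel 89.8%, 77.0% and 86.9% did. The part of brightness and of liver enrichment in the shift of the members was not tested.

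**Figure D1:**
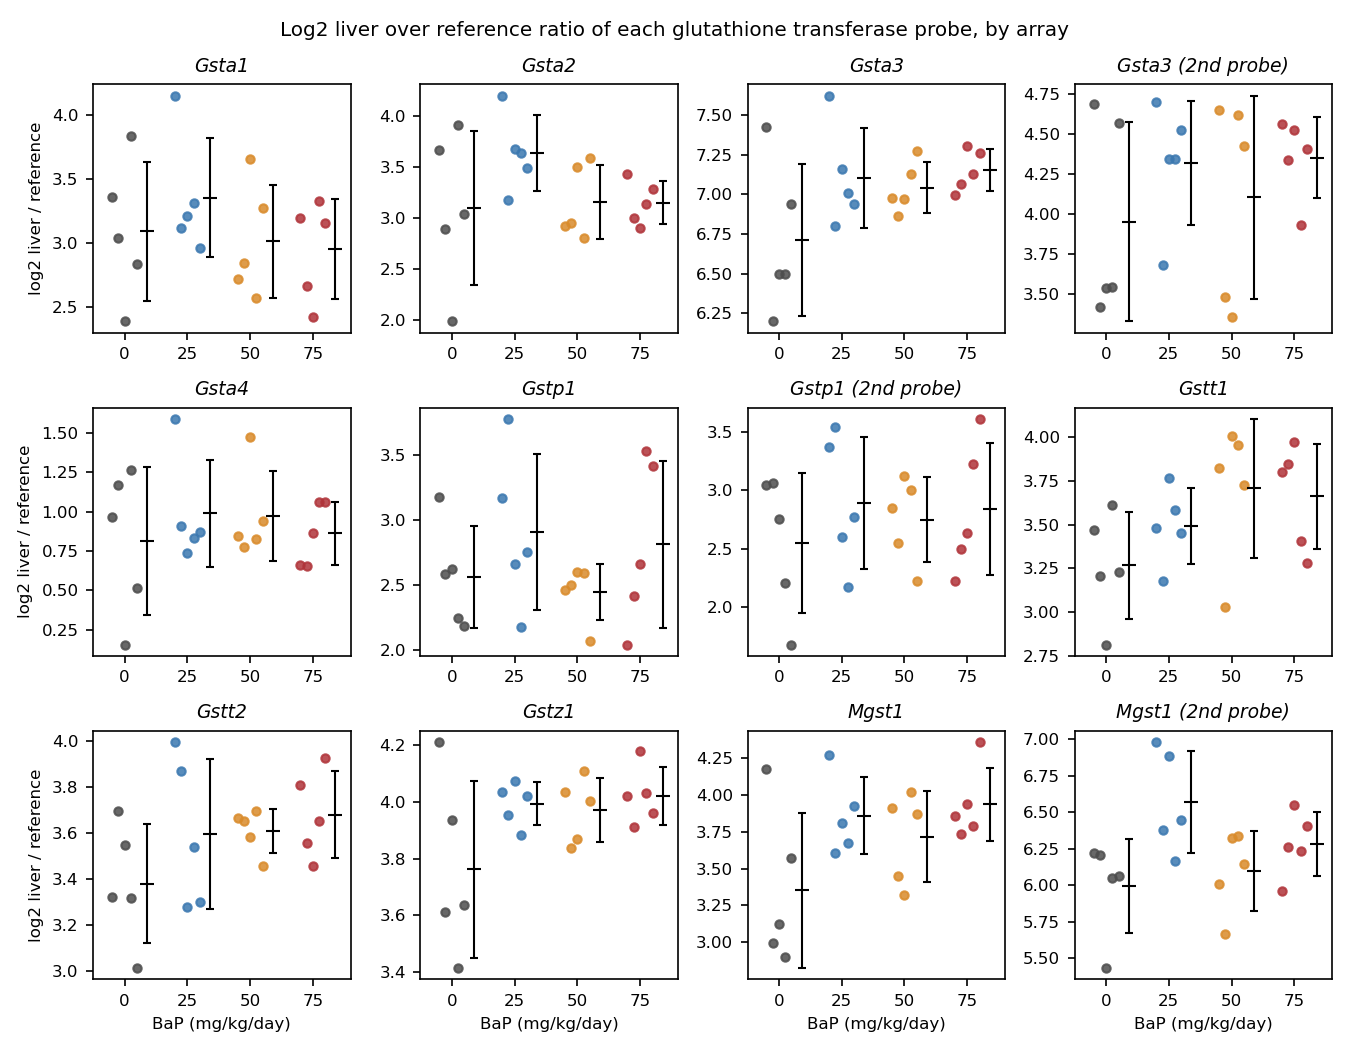
Log2 ratio of liver over reference (y axis, a scale of its own in each panel) for the 12 probes of 9 glutathione transferase genes, by BaP dose in mg/kg/day (x axis, 0 is the olive oil control), with 1 point per mouse and the mean with its SD (n = 5) as a black bar. In each panel every exposed group overlaps the controls. By SD the control group is the widest for *Gsta1*, *Gsta2*, *Gsta4*, *Gstz1*, the brighter probes of *Gsta3* and *Mgst1* and the second *Gstp1* probe.

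Among the alpha class genes, *Gsta1* and *Gsta2* encode enzymes that are inducible in mouse liver. The 5 controls had *Gsta1* ratios of 3.36, 3.04, 2.38, 3.83 and 2.83. The mice given 75 mg/kg/day had ratios of 3.19, 2.66, 2.42, 3.33 and 3.16, all within the range of the controls. Against control, the difference at 75 mg/kg/day was −0.14 on the log2 scale (SE 0.27, limma adjusted p = 0.892), with a 95% confidence interval of 0.617- to 1.34-fold, which leaves out an increase of 1.5-fold. At 25 and 50 mg/kg/day it was 0.26 and −0.08. The sign at 75 mg/kg/day was not stable, since centring each array on its median gave 0.05 and leaving out control replicate 4 gave 0.05.

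*Gsta2* had the widest range of the 9 genes, 4.66-fold between the lowest and the highest array. Its controls stood at 3.67, 2.90, 1.98, 3.92 and 3.04, and the mice given 25 mg/kg/day at 4.20, 3.17, 3.68, 3.64 and 3.49. Control replicate 3 was the lowest of all 20 arrays and BaP 25 replicate 6 the highest. The 25 mg/kg/day group stood 0.54 above control on the log2 scale (SE 0.27, limma adjusted p = 0.649), and without control replicate 3 the difference was 0.26. At 50 and 75 mg/kg/day it was 0.06 and 0.05, with values at 75 mg/kg/day of 3.43, 3.00, 2.90, 3.14 and 3.28, inside the range of the controls. Those 2 differences went to −0.22 and −0.23 without control replicate 3.

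*Gsta4*, whose enzyme prefers 4-hydroxynonenal and other products of lipid peroxidation, had the lowest ratio of the members. The control ratios were 0.96, 1.17, 0.16, 1.27 and 0.51, and the ratios at 75 mg/kg/day 0.66, 0.66, 0.86, 1.06 and 1.06. The log2 fold change was 0.18, 0.16 and 0.05 at the 3 doses (SE 0.20 each), and at 75 mg/kg/day the 95% confidence interval was 0.776- to 1.38-fold. It was −0.10 with slide as a fixed block and −0.12 without control replicate 3. At 25 mg/kg/day the value was 0.0254 without BaP 25 replicate 6, and at 50 it was 0.0328 without BaP 50 replicate 13. Because this probe was printed in 10 spots, it also shows the error of the measurement within an array. The SD between its 7 to 10 usable spots had a median of 0.044 over the arrays, against an SD of 0.34 between the arrays of a group. Each mouse had 1 array, so the SD of 0.34 holds differences of labelling, hybridization and slide as well as of mice. The spots of an array do not measure these.

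*Gsta3* encodes the alpha class enzyme that is abundant in mouse liver and is known for detoxifying aflatoxin epoxide. The controls had ratios of 7.42, 6.20, 6.50, 6.50 and 6.94, and the mice given 75 mg/kg/day 6.99, 7.06, 7.31, 7.13 and 7.26. The exposed mice all lay above 4 of the 5 controls and below control replicate 1. At 75 mg/kg/day the log2 fold change was 0.44 (SE 0.18, 1.36-fold, limma adjusted p = 0.366), and at 25 and 50 mg/kg/day it was 0.39 and 0.33. The second probe gave 0.37, 0.15 and 0.40. Leaving out the lowest control, replicate 2 at 6.20, lowers the value at 75 mg/kg/day. Without control replicate 1, the highest control, it was 0.62 (limma adjusted p = 0.0868), still without a call. It was 0.23 with slide as a fixed block and 0.10 from the liver channel alone.

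*Gstp1* encodes the pi class enzyme, which in mouse liver is abundant in males, and a near-identical neighbour, *Gstp2*, means that the probe may report both. The controls had ratios of 3.17, 2.58, 2.62, 2.24 and 2.18. At 75 mg/kg/day the ratios were 2.04, 2.41, 2.66, 3.53 and 3.41, so 2 mice were above all controls and 1 was below them. The 2 high arrays, BaP 75 replicates 19 and 20, lay on slides 5 and 4, which held no control. Their reference intensities were 18654 and 15069, against 31158 to 38733 on the control arrays. BaP 25 replicates 6 and 7, on slides 4 and 5, had 13903 and 16746. The part of slide and of reference signal in these ratios was not tested. Log2 fold changes were 0.35, −0.12 and 0.25 at 25, 50 and 75 mg/kg/day (SE 0.28 each). Single mice moved them, since the value at 75 mg/kg/day was 0.0717 without BaP 75 replicate 19, 0.1009 without replicate 20, 0.4435 without replicate 16 and 0.4041 without control replicate 1, and that at 25 was 0.1296 without BaP 25 replicate 7 and 0.5291 without replicate 9. The second probe gave 0.34, 0.20 and 0.29, so that the probes differed in sign at 50 mg/kg/day. Slide membership accounted for 78.7% of the variance of the brighter *Gstp1* probe (median over all present probes 40.2%). Over the 12 member probes this share ran from 25.9% (*Gsta4*) to 85.4% (the second *Gsta3* probe), with 70.4% for the brighter *Mgst1* probe. With slide as a fixed block the *Gstp1* value at 75 mg/kg/day was −0.11. The SD within groups was 0.49 for the brighter probe and 0.53 for the other, higher than for 95.7% and 96.6% of present probes.

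The theta class enzyme of *Gstt1* conjugates halogenated small molecules. Its controls had ratios of 3.47, 3.21, 2.81, 3.61 and 3.23. At 50 mg/kg/day the ratios were 3.82, 3.03, 4.01, 3.95 and 3.72, with 4 of 5 mice above all controls and BaP 50 replicate 12 within them. At 75 mg/kg/day they were 3.80, 3.85, 3.97, 3.41 and 3.28, with 3 of 5 above all controls. The log2 fold change was 0.23 at 25, 0.44 at 50 (SE 0.18, limma adjusted p = 0.715) and 0.40 at 75 mg/kg/day (SE 0.18, limma adjusted p = 0.436). Differences within slides that held both groups were 0.11, 0.73, 0.36 and 0.51 at 50 mg/kg/day and 0.23, 0.75 and 0.33 at 75 mg/kg/day, all above 0.

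*Gstt2* was steadier, with controls at 3.33, 3.70, 3.55, 3.32 and 3.02 and mice given 75 mg/kg/day at 3.81, 3.56, 3.46, 3.65 and 3.93. The groups overlapped. Its fold changes at the 3 doses were 0.22, 0.23 and 0.30 on the log2 scale (SE 0.14 each), and the limma adjusted p at 75 mg/kg/day was 0.450. The differences within slides at 75 mg/kg/day were 0.24, 0.44 and 0.49.

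*Gstz1*, the zeta class enzyme, also serves tyrosine breakdown as maleylacetoacetate isomerase. It varied least among the members, with an SD within groups of 0.18. The controls had ratios of 4.21, 3.61, 3.94, 3.41 and 3.64, and the mice given 75 mg/kg/day 4.02, 3.91, 4.18, 4.03 and 3.96. Control replicate 1 was the highest of the 20 arrays, and the exposed mice stood in the upper part of the control range. Its log2 fold changes were 0.23, 0.21 and 0.26 at the 3 doses (SE 0.12 each). At 75 mg/kg/day the adjusted p was 0.415 from limma and the 95% confidence interval was 1.01- to 1.42-fold. From the liver channel alone the value was 0.0872.

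*Mgst1* encodes the microsomal transferase, which also has glutathione peroxidase activity, and it had the largest fold change of the members at 75 mg/kg/day. The controls had ratios of 4.17, 2.99, 3.12, 2.90 and 3.57. The mice given 75 mg/kg/day had 3.86, 3.73, 3.94, 3.79 and 4.36, all above 4 of the 5 controls and 1 above control replicate 1. Its log2 fold change was 0.51 at 25, 0.36 at 50 and 0.58 at 75 mg/kg/day (SE 0.21, 95% confidence interval 1.11- to 2.02-fold, limma adjusted p = 0.308). Without control replicate 1 it was 0.79 (limma adjusted p = 0.0625) and without control replicate 4 it was 0.47. The differences within slides 1, 2 and 3 were 0.83, 0.37 and −0.32, so that they changed sign. The value was 0.30 with slide as a fixed block and −0.06 when the liver channel was used alone.

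The second *Mgst1* probe ordered the doses differently. Its controls had ratios of 6.22, 6.21, 5.43, 6.05 and 6.07, and the mice given 25 mg/kg/day 6.98, 6.38, 6.89, 6.17 and 6.44, with 4 of 5 above all controls. The log2 fold change was 0.58 at 25 (SE 0.18, limma adjusted p = 0.636), 0.10 at 50 and 0.29 at 75 mg/kg/day. The largest value was thus at the lowest dose with this probe and at the highest dose with the brighter probe. Over the 20 arrays the probes of *Mgst1* had a Pearson correlation of 0.53, against 0.73 for *Gsta3* and 0.86 for *Gstp1*.

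**Figure D2:**
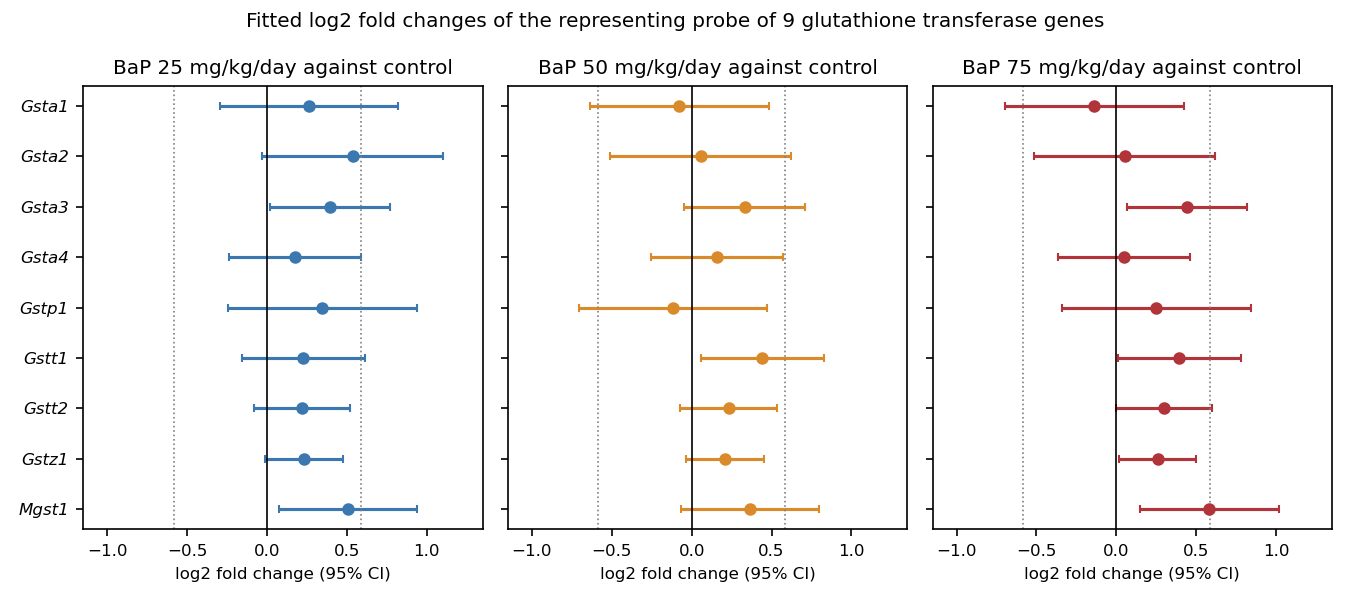
Fitted log2 fold change against control (x axis) with its 95% confidence interval for the representing probe of 9 genes (y axis) at 25, 50 and 75 mg/kg/day, where dotted lines mark 1.5-fold in either direction and the solid line marks no change. The points run from −0.14 (*Gsta1*) to 0.58 (*Mgst1*) at 75 mg/kg/day, and the upper limit lies below 1.5-fold for *Gsta1*, *Gsta4* and *Gstz1*.

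A slope over all 20 arrays, per 25 mg/kg/day, was called at an adjusted p below 0.05 for 0 of 12 probes, against 0.157% of present probes. At an unadjusted p below 0.05, 3 of 12 probes of members and 2347 of 27346 present probes passed. The largest slopes were 0.16 for *Mgst1* (SE 0.07, limma adjusted p = 0.503), 0.14 for *Gstt1* (SE 0.06, adjusted p = 0.487) and 0.13 for *Gsta3* (SE 0.06, adjusted p = 0.551). The slope of *Gsta1* was −0.08 and that of *Gsta2* −0.03. In the order of group means the control stood lowest for *Gsta2*, *Gsta3*, *Gsta4*, *Gstt1*, *Gstt2*, *Gstz1* and *Mgst1*, and for each gene neighbouring groups in the order overlapped. At 75 mg/kg/day *Gsta2*, *Gsta3*, *Gsta4*, *Gstz1* and *Mgst1* had SDs of 0.21, 0.13, 0.20, 0.10 and 0.25. Their controls had SDs of 0.76, 0.48, 0.47, 0.31 and 0.53. The SD was also lower than in the controls for *Gsta1*, *Gstt1* and *Gstt2*, but higher for *Gstp1* (0.64 against 0.40). This contrast of spread was not tested.

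The errors set what could be seen. The SE of a member's log2 fold change ran from 0.12 (*Gstz1*) to 0.30 (the second *Gstp1* probe), and the median SE over all present probes was 0.14. An increase of 1.5-fold lay above the 95% confidence interval for 2 of 9 genes at 25, 5 of 9 at 50 and 3 of 9 at 75 mg/kg/day. For the other genes the interval held a change of that size.

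Across the 20 arrays, 1 per mouse, the ratios of the transferases formed groups that varied together. A ratio also carries variation of the array and of the reference channel, and no correlation was computed from the liver channel alone. Reference intensities ran from 4967.5 to 16157 for the brighter *Mgst1* probe and from 579 to 1755 for the brighter *Gsta3* probe. Both were lowest on BaP 25 replicate 6. The part of the reference channel in these correlations was not tested. Correlations over the 20 arrays were computed for the 36 pairs of the 9 genes and for each gene with the summed hepatocyte markers described below, 45 relations in all, with permutation p-values (100000 resamples, two-sided) adjusted over the 45. For 6 of the 36 pairs the adjusted p of Pearson's r was below 0.05, and these pairs joined *Gsta1*, *Gsta2* and *Gsta4* on 1 side and *Gsta3*, *Gstz1* and *Mgst1* on the other, each gene by its representing probe. The second *Mgst1* probe crossed these groups, as given below. The resamples shuffled all 20 arrays freely, so the p-values take the arrays as independent. The arrays share slides and dose groups, which these p-values do not allow for. For this reason r was also computed after centring on slides and on dose groups, without a p-value.

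*Gsta1* and *Gsta2* had a Pearson r of 0.87 (permutation p = 1e-05, the smallest these resamples can give, adjusted p = 0.000225) and a Spearman rho of 0.87 (permutation p = 1e-05, adjusted p = 0.00045). It was 0.83 without the 2 arrays farthest from the median of *Gsta1*, 0.94 after centring on slides and 0.87 after centring on dose groups. The transcripts of these neighbours are close in sequence, and whether each probe also bound the other transcript was not tested. *Gsta1* and *Gsta4* had an r of 0.79 (permutation p = 6e-05, adjusted p = 0.0009) and a rho of 0.70 (permutation p = 0.00086, adjusted p = 0.00774), with an r of 0.63 without the 2 farthest arrays. *Gsta2* and *Gsta4* had an r of 0.68 (permutation p = 0.0015, adjusted p = 0.00844) and a rho of 0.45 (permutation p = 0.0491, adjusted p = 0.203). That r was 0.31 without the 2 arrays farthest from the median of *Gsta2*, so it rested on those arrays.

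The other group was led by *Gsta3* and *Mgst1*, with an r of 0.89 (permutation p = 1e-05, adjusted p = 0.000225), a rho of 0.83 (permutation p = 3e-05, adjusted p = 0.00045), an r of 0.86 without the 2 farthest arrays and of 0.83 after centring on slides. *Gstz1* and *Mgst1* had an r of 0.77 (permutation p = 0.00011, adjusted p = 0.00124) and a rho of 0.82 (permutation p = 2e-05, adjusted p = 0.00045), and r was 0.57 without the 2 farthest arrays. *Gsta3* and *Gstz1* had an r of 0.72 (permutation p = 0.00052, adjusted p = 0.0039) and a rho of 0.74 (permutation p = 0.00037, adjusted p = 0.00416), and r was 0.70 without the 2 farthest arrays. The place of *Mgst1* depended on its probe. With the second *Mgst1* probe r was 0.57 for *Gsta3* and 0.33 for *Gstz1* (0.24 and 0.20 after centring on slides), and it was 0.60 for *Gsta2* and 0.56 for *Gsta4* (0.66 and 0.68 after centring on slides). With the second probes of both *Gsta3* and *Mgst1* r was 0.41, and −0.08 after centring on slides. These values are a description, with no test. *Gstt1* and *Gstt2*, both of the theta class, had an r of −0.07 (permutation p = 0.775, adjusted p = 0.894) and a rho of −0.10 (permutation p = 0.672, adjusted p = 0.961).

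**Figure D3:**
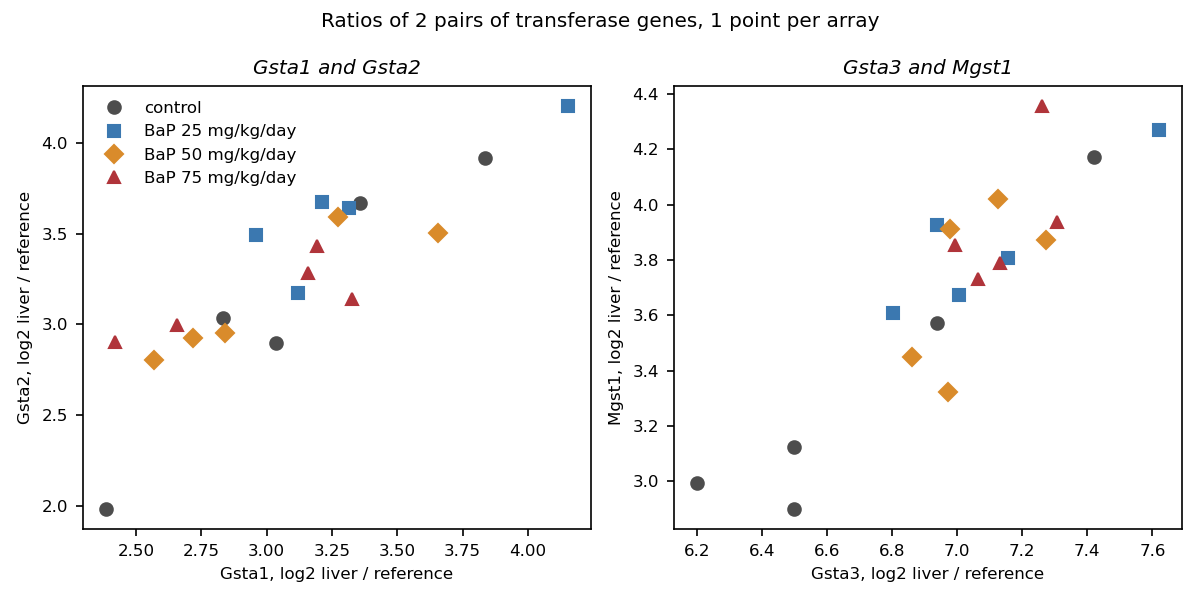
Log2 ratio of liver over reference of *Gsta2* against *Gsta1* (left) and of *Mgst1* against *Gsta3* (right), each gene by its representing probe, with 1 point per array and marker shape and colour for the dose group. The genes of each pair run together (r of 0.87 and 0.89 over 20 arrays), with a control lowest and an exposed mouse highest for each gene.

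By its representing probes, the second group also followed the hepatocyte markers. The second probes of *Gsta3*, *Gstp1* and *Mgst1* were not set against the markers. Of 8 listed hepatocyte genes, 5 had probes (*Alb*, *Apoa1*, *Fgb*, *Trf* and *Ttr*), and the log2 of their summed ratios ran from 6.65 to 7.99 in the controls, 7.44 to 7.97 at 25, 7.52 to 7.94 at 50 and 7.51 to 8.05 at 75 mg/kg/day. All 5 had a log2 fold change above 0 at each dose, with medians of 0.33, 0.32 and 0.44, and 0 were called. The lowest sum thus belonged to a control, and the groups overlapped. In RNA from whole liver, more cells of a type and more RNA per cell cannot be told apart.

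The r with the summed markers was 0.77 for *Gstz1* (permutation p = 0.0002, adjusted p = 0.0018, rho 0.67, permutation p = 0.00152, adjusted p = 0.0113) and 0.66 for *Mgst1* (permutation p = 0.00106, adjusted p = 0.00681, rho 0.58, permutation p = 0.00875, adjusted p = 0.0492). *Gstp1* had an r of 0.60 (permutation p = 0.00494, adjusted p = 0.0247) and a rho of 0.67 (permutation p = 0.00176, adjusted p = 0.0113), but r was 0.18 after centring on slides. *Gsta3* had an r of 0.58 (permutation p = 0.01, adjusted p = 0.0451) and a rho of 0.53 (permutation p = 0.0156, adjusted p = 0.0782). Without the 2 farthest arrays r was 0.53 for *Gstz1*, 0.46 for *Mgst1*, 0.52 for *Gstp1* and 0.61 for *Gsta3*. For *Gsta1* and *Gsta2* r was −0.15 and −0.13 (permutation p = 0.516 and 0.56, adjusted p = 0.704 and 0.741), with rho of 0.08 and −0.02 (permutation p = 0.73 and 0.942, adjusted p = 0.961 for both). The part of the hepatocyte markers in the values of the members was not tested.

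For the 4 members of largest SD, the transcripts most like them over the 20 arrays were looked up among 12876 other present genes, with the members and all listed genes left out, as a description. The ratio of *Mgst1* followed most closely those of *Gc*, which encodes the vitamin D-binding protein of plasma, and *Apoa5*, an apolipoprotein (r of 0.97 for both). *Gstp1* was most like *Tsku* and *Scyl3* (r of 0.76 and 0.75), *Gsta2* like *Grm8* and *Dhodh* (r of 0.75 and 0.67) and *Gsta1* like *Olfr26* and *Cox10* (r of 0.61 and 0.58). None of these genes was as close to *Gsta1* or *Gsta2* as the pair were to each other.

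Genes that work beside the listed transferases were counted in 5 lists, which were chosen with earlier results of these data known. Of 16 present genes in the list of other glutathione transferases and MAPEG proteins (the membrane family of Mgst1), 2 rose at 75 mg/kg/day and 0 fell, with a median log2 fold change of 0.32, where 0.135% of all present probes were called (36 higher and 1 lower). *Ltc4s*, the synthase that joins glutathione to leukotriene A4, rose by 2.27 (SE 0.22, limma adjusted p = 5.18e-05) and *Gstm4*, a mu class gene, by 0.64 (SE 0.13, limma adjusted p = 0.0401), with 5 of 5 exposed mice above all controls for both (groups without overlap made up 1.52% of all present probes). Values for *Gstm3*, *Gstt3* and *Gstm1* were 0.90 (limma adjusted p = 0.0511), 0.57 and 0.57. At 25 and 50 mg/kg/day 0 of the 16 were called, where 0% of all present probes were called.

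The list of glutathione synthesis and recycling had 19 present genes, of which 0 were called at any dose, and at 75 mg/kg/day the median of their log2 fold changes was 0.13. The largest differences were those of *Gclc*, the catalytic subunit of glutamate-cysteine ligase (0.49, limma adjusted p = 0.325, 4 of 5 mice above all controls), *Gpx1*, a glutathione peroxidase (0.39), *G6pdx*, which supplies NADPH (0.35), and *Glrx*, a glutaredoxin (−0.33). The list of mercapturate formation and conjugate export had 16 present genes and a median of 0.04 at 75 mg/kg/day. It had 0 calls at any dose, against the same shares of all present probes. *Nat8*, which acetylates cysteine conjugates, stood 0.72 above control on the log2 scale at 75 mg/kg/day (limma adjusted p = 0.233). *Kyat1*, a cysteine conjugate lyase, stood 0.42 above control, and the exporter *Abcc4* also 0.42 (limma adjusted p = 0.237). For *Abcc4* 5 of 5 mice lay above all controls, where groups without overlap made up 1.52% of all present probes.

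The 14 present genes in the list of regulators of transferase transcription had a median of 0.26 at 75 mg/kg/day on the same scale. Of these, 0 were called at any dose, where 0%, 0% and 0.135% of all present probes were called at 25, 50 and 75 mg/kg/day. *Bach1*, which competes with Nrf2 at its elements, had 0.98 (SE 0.40, limma adjusted p = 0.372), *Nfe2l2*, the gene of Nrf2, 0.48, and *Mafk* and *Keap1*, a partner and the inhibitor of Nrf2, 0.40 each. The 7 genes of BaP activation had a median of 0.32. Among them *Nqo1* encodes a quinone reductase that is a usual readout of Nrf2 and of the aryl hydrocarbon receptor. *Nqo1* rose by 0.68 at 75 mg/kg/day (SE 0.13, limma adjusted p = 0.0386). For it 5 of 5 mice lay above all controls, where groups without overlap made up 1.52% of all present probes. *Cyp1a1*, the usual readout of the aryl hydrocarbon receptor, had a fitted change of 0.72 (SE 0.45, limma adjusted p = 0.566) at a median liver intensity of 115, near background. *Ephx1*, the epoxide hydrolase, had 0.45.

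**Figure D4:**
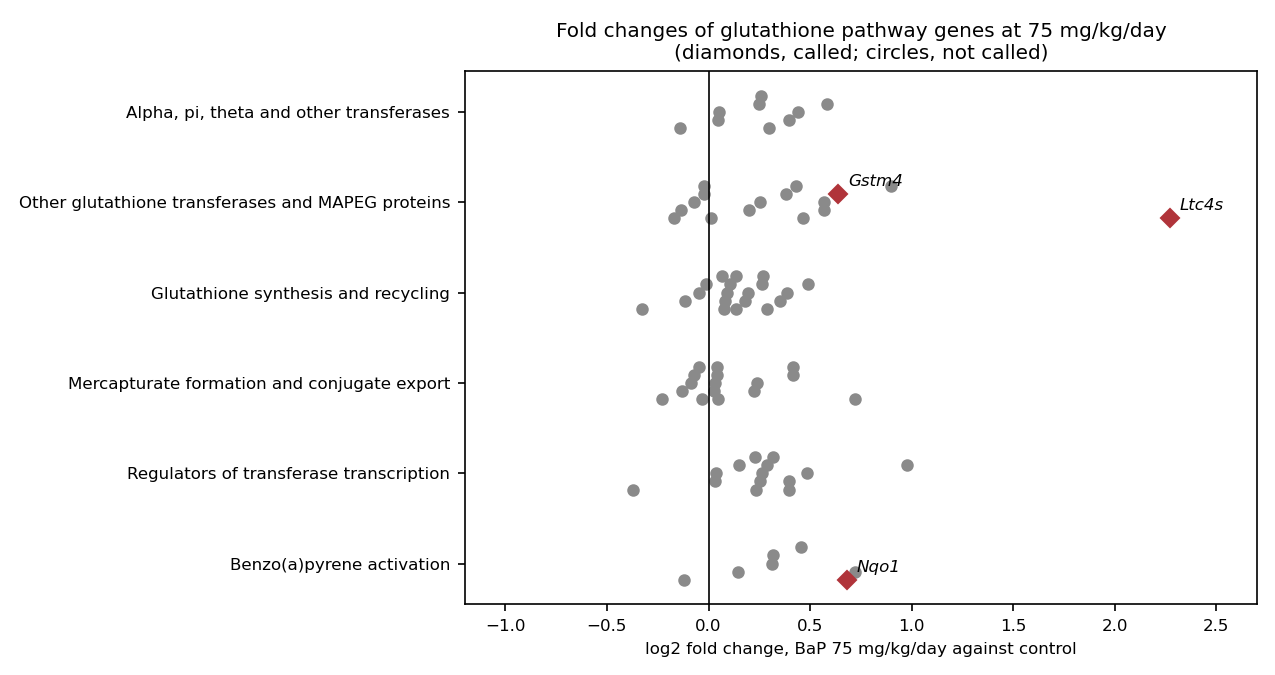
Log2 fold change at 75 mg/kg/day against control (x axis) for 1 probe per gene, in rows for the alpha, pi, theta and other transferases described here and for 5 lists of neighbouring genes, with red diamonds for called genes and grey circles for the others (vertical offsets within a row carry no value). The called genes are *Ltc4s* at 2.27, *Nqo1* at 0.68 and *Gstm4* at 0.64, and the top row holds none.

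Facts of the arrays bear on all these values. Between 51.9% and 67.5% of liver channel spots were well above background. The 20 arrays lay on 6 slides of 4 positions, with 4 controls at position 1 and control replicate 2 at position 2, all BaP 25 arrays at position 2, 4 BaP 50 arrays at position 3 and BaP 50 replicate 13 at position 4, and all BaP 75 arrays at position 4. No position held both controls and mice given 50 or 75 mg/kg/day, so that for these doses dose and position cannot be told apart. At 25 mg/kg/day the difference within position 2 rests on control replicate 2 alone, and it ran from −0.18 (*Gsta4*) to 0.90 (*Gsta3*) and was above 0 for 9 of 12 probes. Slides 4 and 5 held only mice given 25 or 75 mg/kg/day, and slide 6 only controls and mice given 50 mg/kg/day. The consensus correlation within slides was 0.24. Of the lists of other cell types, 1 of 5 Kupffer cell genes (*Marco*, 2.19) and 1 of 5 endothelial genes (*Lyve1*, 2.23) rose at 75 mg/kg/day. At that dose 0.135% of all present probes were called. Of the bile duct, stellate and present lung genes, 0 of 5, 0 of 5 and 0 of 4 were called. Among the last, *Sftpd*, named after its value was seen, stood at 1.19 at 75 mg/kg/day (SE 0.25, limma adjusted p = 0.0688). For *Sftpd* 5 of 5 mice lay above all controls, where 1.52% of all present probes had groups without overlap. The part of these genes in the values of the members was not tested.

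With slide as a fixed block 0 of 12 member probes were called at any dose, against 0, 3 and 58 of 27346 present probes at 25, 50 and 75 mg/kg/day. The block lowered the value at 75 mg/kg/day for 8 of 9 genes, among them *Gsta1* to −0.38, *Gsta2* to −0.18, *Gsta3* to 0.23 and *Mgst1* to 0.30, while *Gstt1* stood at 0.41. The 3 slides that held both groups gave *Gsta1* differences of −1.18, −0.41 and −0.16 at 75 mg/kg/day, all below 0. *Gstt1* and *Gstt2* were the genes whose 3 differences were all above 0.

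**Figure D5:**
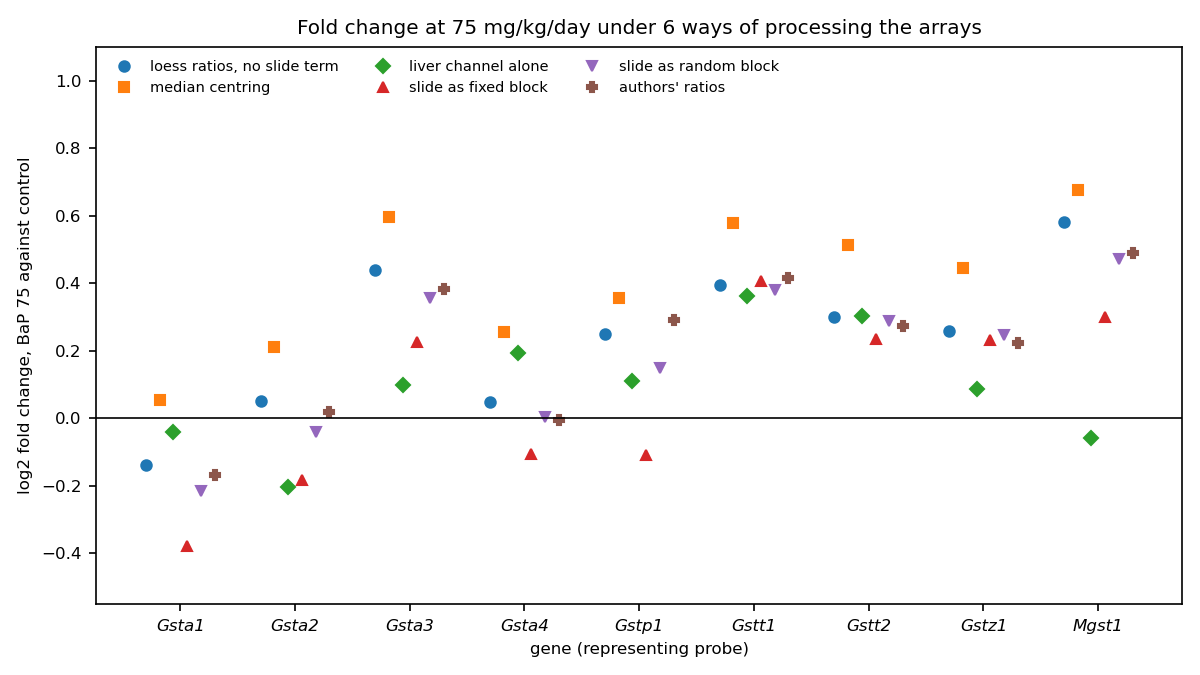
Log2 fold change at 75 mg/kg/day against control (y axis) of the representing probe of 9 genes (x axis) under 6 ways of processing the arrays, shown by marker shape and colour. *Gstt1*, *Gstt2*, *Gsta3* and *Gstz1* lie above 0 in all 6, while *Mgst1* runs from −0.06 with the liver channel alone to 0.68 with median centring and *Gsta1* from −0.38 with slide as a fixed block to 0.05 with median centring.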

How the data were processed

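Liver RNA of 20 mice (4 groups of 5) was hybridized against reference RNA on two-color arrays. The intensities used are the median spot and background brightness that the authors deposited, extracted by Feature Extraction, whose version differs between file headers and methods, and not normalized. Processed intensities deposited beside them had their background and dye corrections made there too. The log2 ratios deposited by the authors were LOWESS-normalized. They correlated with the ratios used here at r of 0.994 to 0.996 per array, and their column medians were −0.040 to −0.018. Other deposited columns hold marks of 0 or 1 for spots well above background, saturated or outlying, and 0 spots were saturated.

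Intensities were corrected by normexp (offset 50) and normalized by loess within arrays, outlier spots were left out, and spots of a probe were averaged. Presence followed the study's methods, with a liver signal above the trimmed mean (5%) plus 3 trimmed SDs of 153 negative control spots on at least 4 of 5 arrays of a group. Symbols came from RefSeq accessions (23374 of 41174 probes, GRCm38.p6 gene table). R 4.3.3, limma 3.58.1, Python 3.11.15, Biopython 1.88 and matplotlib 3.10.9 were used. Each dose was compared with control in 1 limma fit over all 20 arrays, where the methods used MAANOVA. The methods removed 1 unnamed sample, and all 20 were kept. The fit was tested on simulated data.

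The members and lists were chosen with earlier results of these data known. All members were named, and from each list the called genes and up to 4 with the largest fold change at 75 mg/kg/day. Alternatives covered background, normalization, presence, slide, samples and adjustment, and each array was left out in turn. For the lowest dose 24 mg/kg stands in the series description and 25 mg/kg in the labels, which was used.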

Additional observations from a re-analysis of the deposited data

Results flagged for a closer look

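In 5 of the 48 groups of 5 arrays tested (12 probes in 4 groups), 1 array lay apart from the others, with a gap to its nearest neighbour of more than 0.71 of the range of the group. Chance gives such a gap in about 5% of groups. *Gsta4* had 1 high array at 25 mg/kg/day (1.59 in BaP 25 replicate 6, next 0.91) and 1 at 50 mg/kg/day (1.47 in BaP 50 replicate 13, next 0.94). Without these arrays its differences from control went from 0.18 to 0.0254 at 25 and from 0.16 to 0.0328 at 50 mg/kg/day. BaP 25 replicate 6 was also the highest array of its group for *Gsta1*, at 4.15, *Gsta2*, at 4.20, and *Gstt2*, at 4.00. The same held for both probes of *Gsta3* (7.62 and 4.70) and of *Mgst1* (4.27 and 6.98), but not for *Gstp1*, *Gstt1* or *Gstz1*. The brighter *Gstp1* probe had 1 low array at 50 mg/kg/day, with 2.07 in BaP 50 replicate 15 and 2.46 next to it, and without it the difference went from −0.12 to −0.0237. *Gstt1* had 1 low array at 50 mg/kg/day, with 3.03 in BaP 50 replicate 12 and 3.72 next to it. Without that array *Gstt1* differed from control by 0.61 on the log2 scale (limma adjusted p = 0.302). The second *Mgst1* probe had 1 low control, with 5.43 in control replicate 3 and 6.05 next to it, and without it the differences at the 3 doses were 0.44, −0.04 and 0.15 in place of 0.58, 0.10 and 0.29.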

How the results depend on the processing

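The count of members called was 0 of 12 probes under every alternative run and without any 1 array, at each dose and for the slope. The lowest adjusted p was 0.0625 for *Mgst1* at 75 mg/kg/day without control replicate 1. No paired analysis was possible because the sample numbers 1 to 20 are not shared between groups, as far as pairing by number goes, and slides that hold several groups were used as blocks. Of 378 alternative values of single members, 144 were identical to the reported value, as settings that change only the presence filter, the samples sharing the fit or the adjustment leave a fold change as it is, and slide as a block did so at 50 mg/kg/day. Of the other 234, 212 kept their sign and 22 did not, and the cause was not tested. These had median centring at 50 mg/kg/day (*Gsta2* −0.0909, *Gstz1* −0.0454, *Mgst1* −0.0272) and at 75 mg/kg/day (*Gsta1* 0.0531), the liver channel alone at 25 (*Gsta3* −0.0019), 50 (*Gsta1* 0.0576, *Gstp1* 0.0091, *Mgst1* −0.0222) and 75 mg/kg/day (*Gsta2* −0.20, *Mgst1* −0.0567) and for the slope (*Mgst1* −0.0305), processed signals at 50 mg/kg/day (*Gsta2* −0.0361), the authors' ratios at 75 mg/kg/day (*Gsta4* −0.0047) and for the slope (*Gsta4* −0.0028), slide as a random block at 75 mg/kg/day (*Gsta2* −0.0411) and for the slope (*Gstp1* −0.0002), and slide as a fixed block at 25 (*Gstp1* −0.0128) and 75 mg/kg/day (*Gsta2* −0.18, *Gsta4* −0.10, *Gstp1* −0.11) and for the slope (*Gsta4* −0.0088, *Gstp1* −0.0466). Within the slide position that holds both groups, an alternative added after seeing the data, *Gsta4* (−0.1796) and *Gstt2* (−0.1006) changed sign at 25 mg/kg/day and the other 7 genes did not. Median centring put the median of all probes at 0.11, −0.08 and 0.10 at the 3 doses.

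Leaving out each array in turn gave ranges that crossed 0 at 50 mg/kg/day for *Gsta1* (−0.25 to 0.11), *Gsta2* (−0.22 to 0.26), *Gsta4* (−0.0059 to 0.27) and *Gstp1* (−0.21 to 0.0365), at 75 mg/kg/day for *Gsta1* (−0.31 to 0.048), *Gsta2* (−0.23 to 0.26) and *Gsta4* (−0.12 to 0.16), and for the slopes of *Gsta2* (−0.13 to 0.0099), *Gsta4* (−0.0382 to 0.0392) and *Gstp1* (−0.0272 to 0.0765). Controls 3 and 4 set both ends for *Gsta1*, *Gsta2* and *Gsta4*.

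Over all present probes the calls ran, without 1 array, from 0 to 2 at 25 (2 without control replicate 3), 0 to 1 at 50, 25 to 72 at 75 mg/kg/day (most without BaP 75 replicate 19) and 28 to 59 for the slope. Calls at 50 mg/kg/day, 0 as reported, were 4 with processed signals, 6 with slide as a random block, 3 with it fixed and 4 with adjustment over the doses together. Calls at 75 mg/kg/day, 37 as reported, were 62 with processed signals, 16 with median centring, 62 and 58 with slide as a random and a fixed block and 5 with the 2 groups alone. Calls of the slope, 43 as reported, were 8 with median centring, 69 with the liver channel alone, 28 with probes well above background on all arrays, and 109 and 95 with slide as a random and a fixed block. The number of arrays limits the precision.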
